A study of Mus musculus with 21 samples.

Results

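Focal copy number changes, gains and losses smaller than a chromosome, were collected from array comparative genomic hybridization (aCGH) of mouse liver tumours as windows of 2 Mb. For each autosomal window holding at least 20 probes, the mean log2 ratio of tumour over reference DNA was taken, the mean of the same tumour's whole chromosome was subtracted, and the median of that window over the tumours hybridized to the same array design was subtracted in turn, so that a window value compares a window with its own chromosome and with the other tumours. Windows with a value of 0.3 or more in size in at least 1 tumour were kept as focal windows, and these numbered 47 of the 1154 windows measured (4.07%). Since the windows were selected on these values, the values themselves are given as a description, without a test.

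The 21 tumours came from male C57BL/6 mice that received CD-HFD, a choline-deficient high-fat diet that gives rise to non-alcoholic steatohepatitis (NASH) and liver cancer, for 12 months. The CD-HFD group held 9 tumours of 7 mice without antibody. The anti-PD1 group held 12 tumours of 7 mice that were given the same diet and 8 weeks of an antibody against PD1, the inhibitory receptor of activated T cells. Lesions of one mouse were recognized by the shared leading number of their labels, and the C57BL/6 substrain was not given in the sources used here. DNA from formalin-fixed sections was labelled with Cy3 (250 ng) and was hybridized against a common Cy5-labelled reference, described in the labels as a pool of liver tails of C57BL/6 origin. The arrays were spread over 3 slides of 2 designs, both groups were present on each slide, and dyes were not swapped. Of 59052 spots on an array, 65.0% to 99.99% were well above background in the tumour channel, and the lowest share and the lowest median tumour signal (27.0, against up to 539) belonged to lesion 1 of mouse 608.

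In aCGH, tumour and reference DNA compete for the same probe, so that loss of a copy lowers the log2 ratio and gain of a copy raises it, with a smaller shift where normal cells dilute the tumour. Liver cancers are known for gains and losses of whole chromosome arms and for short amplifications or deletions that pinpoint single genes. A locus absent from the germline of some mice gives the same picture as a tumour deletion, but appears in every lesion of such a mouse.

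Altogether 64 of 21771 values reached 0.3 in size, 16 higher and 48 lower. Of the 1154 windows, 11 (0.953%) were higher and 37 (3.21%) were lower in at least 1 tumour, and a single window on chromosome 6 was both. The values nearest to the threshold were 0.298, −0.298 and −0.2997 on the outside, and 0.3004, 0.3007 and −0.3008 on the inside. Focal windows were found on 17 chromosomes and in 14 tumours, with 0 in the other 7 tumours. Of the 47 windows, 40 were past the threshold in 1 tumour and 7 in several, and a window value rested on 20 to 94 probes (median 33). Lesion 1 of mouse 608, the array with the dimmest tumour signal, held 22 of the values (34.4%), and 16 windows were past the threshold only in this tumour. Of the 47 windows, 8 had at least 20 probes only on the design of slide 1. They were not measured in the tumours of the other slides and could not recur there. Some of the windows past the threshold only in lesion 1 of mouse 608 were among them. With this tumour left out and the medians taken anew, 37 windows and 49 values were past the threshold, and 33 of the 37 were among the 47.

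**Figure D1:**
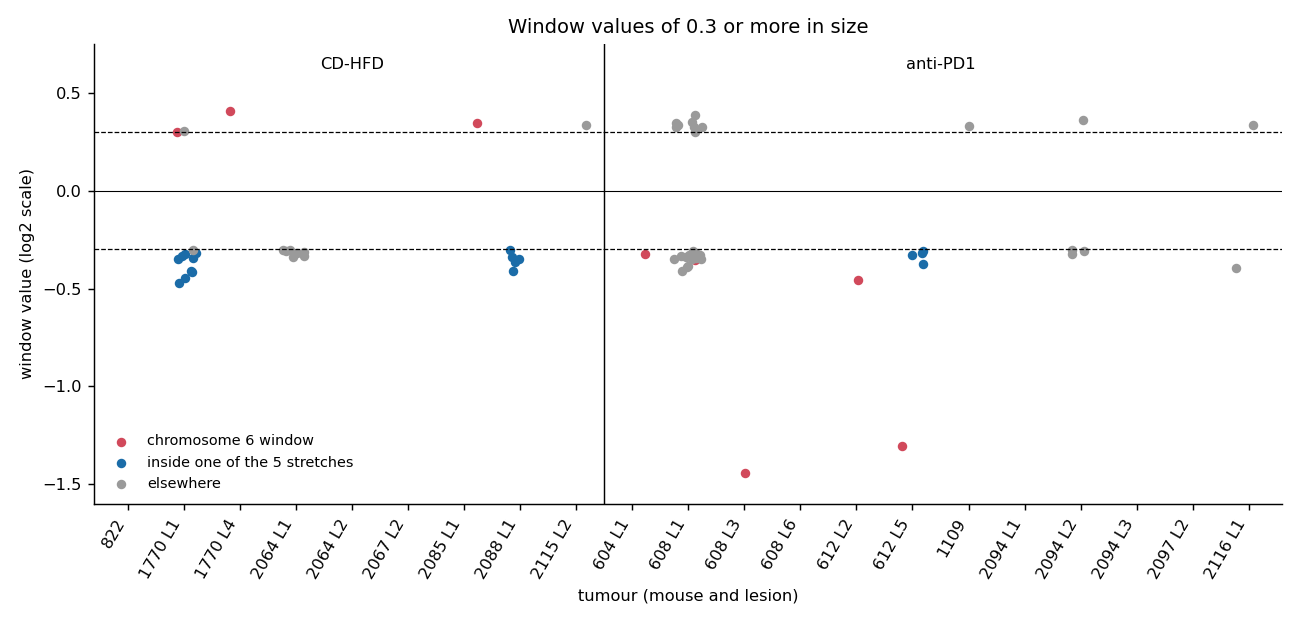
Window values of 0.3 or more in size (vertical axis, log2 scale) in each of the 21 tumours (horizontal axis), with CD-HFD on the left and anti-PD1 on the right. Each point is a window in a tumour, red for the chromosome 6 window, blue for windows inside 1 of 5 low stretches and grey for the rest. Only the chromosome 6 window went beyond −1, and lesion 1 of mouse 608 held 22 of the 64 points.

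The strongest and most recurrent focal window lay on chromosome 6 (chr6:60000001-62000000, mm9). Among its genes are Ccser1, of the coiled-coil serine-rich family, and Mmrn1, which encodes the factor V-binding protein multimerin 1. The differences described below lay at a locus that includes Mmrn1 and no probe of Ccser1. The sequences below, written 5′ to 3′, are the 3 probes of Mmrn1 that both array designs carried, shown because the mice of the cohort fell apart at the 2 in coding exons.
A_53_P131396: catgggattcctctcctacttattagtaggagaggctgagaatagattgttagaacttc
A_53_P154734: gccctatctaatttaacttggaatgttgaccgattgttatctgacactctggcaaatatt
A_53_P154153: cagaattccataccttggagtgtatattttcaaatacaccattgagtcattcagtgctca

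Placed by sequence on the GRCm38 genome with its GENCODE annotation, A_53_P131396 at chr6:60885942-60886000 (mm9, as in the array files) matched an intron of Mmrn1. A_53_P154734 at chr6:60927608-60927667 and A_53_P154153 at chr6:60938337-60938396 matched coding exons of the gene, and all 3 matched the plus strand.

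At A_53_P154734, tumour DNA gave a signal above local background of 1.82 to 21.1 (median 5.47) in the 6 tumours of mice 604, 608 and 612 and 79.0 to 1140 (median 211) in the other 15, and it was well above background in 0 of 6 and 15 of 15 tumours. For A_53_P154153, the signal was −5.83 to 4.59 (median 1.24) and 26.0 to 439 (median 67.5), again well above background in 0 of 6 and 15 of 15. The 2 sets had been told apart by the tumour signal at probes of this locus, these probes among them. Their separation here is therefore a description. At both coding probes the 2 sets of tumours did not overlap. For A_53_P131396 they did, with −4.46 to 16.4 (median 0.706) against 7.28 to 122 (median 17.8), and the signal was well above background in 0 of 6 and 6 of 15.

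The reference pool was dim at the same probes. Its channel was well above background at none of the 3 probes on any array, with a signal of 5.56 to 35.8 at A_53_P154734 on the arrays of mice 604, 608 and 612 and of 8.80 to 32.6 on the others. A ratio at these probes therefore set a present or a dim tumour signal against a reference near background, and gives no measure of copy number there.

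The window value was −1.44 in lesion 3 of mouse 608, −1.30 in lesion 5 of mouse 612, −0.46 in lesion 2 of mouse 612, −0.36 in lesion 1 of mouse 608, −0.32 in lesion 1 of mouse 604 and −0.24 in lesion 6 of mouse 608. On slide 1, where 4 of the 8 tumours came from these mice, the median lay between both levels and the remaining tumours were raised, with 0.41 in lesion 4 of mouse 1770, 0.34 in lesion 1 of mouse 2085, 0.30 in lesion 1 of mouse 1770 and 0.24 in lesion 2 of mouse 2067. The window was thus past the threshold in 8 tumours of 5 mice, lower in 5 and higher in 3, and its 3 high values were all on slide 1. These values rested on the 8 probes per array at the locus of Mmrn1. Without those 8 probes the window had −0.216 to 0.034 in the 6 tumours of mice 604, 608 and 612. It then had −0.144 to 0.228 in the other 15, so that the rest of the window stayed under the threshold. Every lesion of mice 604, 608 and 612 was dim at both coding probes of Mmrn1 and no lesion of another mouse was. All 3 mice belonged to the anti-PD1 group (3 of 7 mice, against 0 of 7 CD-HFD mice). Whether this came with the mice or arose in their tumours was not tested.

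Outside the chromosome 6 window, 56 values in 46 windows were left, 13 higher and 43 lower, between −0.472 and 0.389 with a median size of 0.334. Runs of low windows in a tumour and, on chromosome 3, a single low window gave 5 stretches, which were picked after the values had been seen and whose ends were set where the probe profile, corrected for regional GC content, changed level. These stretches held 18 of the 56 values, and each was found in 1 tumour only. The ends chosen on every second probe were then read on the probes left out, and the difference to the rest of the chromosome was −0.203 to −0.405 there. This is a description, since the stretches had been picked on values of all probes. Read in the same way and signed by direction, 29 other pairs of a tumour and a chromosome had a median of 0.033 (−0.296 to 0.323), against 0.203 to 0.405 for the stretches. The ranges overlapped, and some intervals of the other pairs held only 10 probes, against 47 to 1157 in the stretches. Since the stretches had been picked and the other pairs had not, nothing is read from this comparison.

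Lesion 1 of mouse 1770 (CD-HFD) carried 3 of the stretches. Its array was also dim, with a median tumour signal of 38.9 and 82.1% of spots well above background in the tumour channel. Of its windows, 0 were past the threshold with normexp background correction, and 20 were with only probes well above background in both channels. The longest covered the distal part of chromosome 1 (chr1:144436361-197188286, 52.8 Mb, 1157 probes naming 421 genes), where the probes averaged 0.283 below the rest of the chromosome on the log2 scale (−0.283). The corresponding difference was 0.018 to 0.033 in the other mice on slide 1 and 0.026 in lesion 4 of the same mouse. All 26 windows of the stretch were below 0 in this tumour, and 3 were past the threshold. The lowest was chr1:158000001-160000000 with −0.348 (other mice −0.030 to 0.067), where Rasal2, a Ras GTPase-activating protein, averaged −0.40 over 5 probes. This window value depended on the processing. It was −0.020 with loess-normalized ratios, −0.099 with normexp, −0.206 with only probes well above background and −0.374 after correction for regional GC content. The window chr1:164000001-166000000 had −0.334, and there Dnm3, a dynamin of membrane fission, averaged −0.39 over 12 probes. Here and below, except on chromosome 3, the gene averaged is the one farthest from 0 in its window. Such an average is an extreme and not typical of the window.

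The second stretch of this tumour lay on chromosome 2 (chr2:57434463-89202730, 31.8 Mb, 725 probes, 278 genes) with a difference of −0.261, against 0.008 to 0.045 in other mice and 0.019 in lesion 4. All 16 windows were below 0 and 5 were past the threshold, so that it held more focal windows than any other stretch of this tumour. The lowest, chr2:78000001-80000000, had −0.472 (other mice −0.122 to 0.063), with Pde1a, a calmodulin-dependent phosphodiesterase, at −0.47 over 9 probes. The value of this window was −0.175 with normexp, −0.618 with loess-normalized ratios and −0.444 with only probes well above background. In chr2:62000001-64000000 the value was −0.444, and Slc4a10, a bicarbonate transporter, averaged −0.82 over 4 probes. This window was also past the threshold in lesion 1 of mouse 608, with −0.341, which became −0.177 after correction for regional GC content. The window chr2:74000001-76000000 had −0.409 (other mice −0.175 to 0.070) and held Nfe2l2, the gene of the oxidative stress regulator NRF2 and the only liver cancer gene of the list in a focal window, whose 4 probes averaged −0.53. After the correction it remained at −0.393.

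The shortest stretch was on chromosome 3 (chr3:52054120-54549004, 2.49 Mb, 47 probes, 17 genes), again in lesion 1 of mouse 1770, and it had the largest difference (−0.482, other mice −0.061 to 0.071, lesion 4 of the mouse 0.013). Of its 47 probes 42 were below 0 in this tumour, with a mean of −0.450 ± 0.392 (SD over probes), and the probes within 3 Mb averaged −0.005 before (59 probes) and 0.041 behind the stretch (55 probes). In lesion 4 of the same mouse, 21 of the 47 probes were below 0 and the mean was −0.011. The probes at both ends and both probes of Foxo1, which encodes a transcription factor restrained by insulin and needed for hepatic gluconeogenesis, are printed 5′ to 3′ because they mark where the level changed.
A_67_P00640940: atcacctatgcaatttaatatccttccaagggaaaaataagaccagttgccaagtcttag
A_67_P04905789: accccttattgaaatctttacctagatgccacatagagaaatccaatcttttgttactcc
A_67_P00641107: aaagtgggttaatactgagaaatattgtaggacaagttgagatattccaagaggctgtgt
A_53_P121916: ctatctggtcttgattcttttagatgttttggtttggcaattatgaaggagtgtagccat
A_67_P04911909: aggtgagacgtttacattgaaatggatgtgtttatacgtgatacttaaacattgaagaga
A_67_P04911979: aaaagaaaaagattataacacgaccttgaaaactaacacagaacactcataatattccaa

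A_67_P00640940 at chr3:51985690-51985749 is the last probe before the stretch and had −0.03 in lesion 1 of mouse 1770. A_67_P04905789 at chr3:52054120-52054179 is the first probe inside, intergenic by its match on GRCm38, and had −0.28. Both Foxo1 probes matched introns of the gene on the plus strand. A_67_P00641107 at chr3:52092538-52092597 had −0.80, against −0.14 to 0.31 in the other mice. A_53_P121916 at chr3:52129527-52129586 had −0.86, against −0.26 to 0.32. The low level thus included Foxo1, for which lesion 4 of the mouse had 0.29 and 0.11. A_67_P04911909 at chr3:54548945-54549004, in an intron of Alg5, was the last probe inside with −0.79. A_67_P04911979 at chr3:54574845-54574904, in an intron of Smad9, a mediator of bone morphogenetic protein signals, was the first behind it with 0.15.

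The other genes between Foxo1 and Alg5, an enzyme of N-glycosylation, were unevenly low. The cation channel gene Trpc4 averaged −0.59 over 5 probes and Lhfp −0.35 over 5 probes. Postn, the gene of the matrix protein periostin, had −0.78 at a single probe and Cog6, of a Golgi tethering complex, −0.53. Frem2, the gene of a basement membrane protein, averaged only −0.10 over 4 probes, within the −0.16 to 0.28 of the other mice. The probes of the stretch had an SD of 0.392, so that these few probes cannot tell whether the level differed between genes. The window chr3:52000001-54000000 that brought the stretch in had −0.416 and was further from 0 (−0.472) after correction for regional GC content. Its value was −0.219 with normexp, −0.398 with loess-normalized ratios and −0.433 with only probes well above background.

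**Figure D2:**
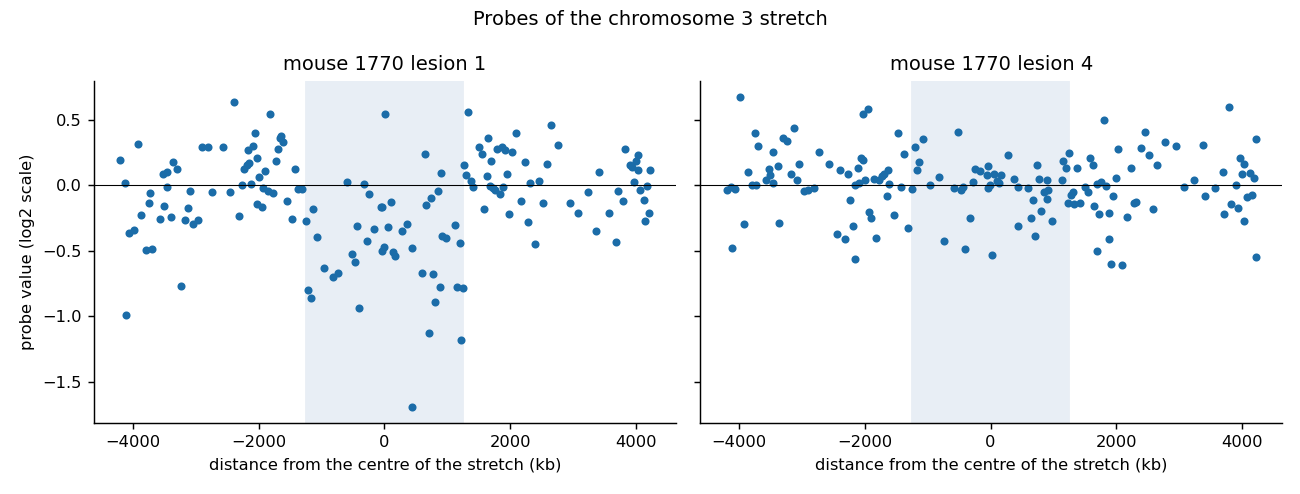
Probe values around the chromosome 3 stretch (log2 scale, chromosome mean and median of the 8 tumours subtracted) against distance from its centre (kb), in lesion 1 and in lesion 4 of mouse 1770. Each point is a probe and the shaded band is the stretch, in which 42 of 47 probes were below 0 in lesion 1 and 21 of 47 in lesion 4.

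In lesion 1 of mouse 2088 (CD-HFD, the only tumour of this mouse), proximal chromosome 4 was low (chr4:8862483-48069597, 39.2 Mb, 636 probes, 229 genes) with a difference of −0.244 and −0.007 to 0.035 in other mice. Of its 15 windows 13 were below 0 and 5 past the threshold, while chr4:20000001-22000000 and chr4:24000001-26000000 had 0.010 and 0.057, so that the stretch was interrupted. The lowest window, chr4:36000001-38000000, had −0.409, and Lingo2, a neuronal leucine-rich repeat gene, averaged −0.41 over 18 probes. In chr4:14000001-16000000, with −0.349, Nbn of the DNA double-strand break machinery averaged −0.59 over 3 probes.

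In lesion 5 of mouse 612 (anti-PD1), a stretch of chromosome 16 was low (chr16:47811926-79592299, 31.8 Mb, 403 probes, 108 genes) with a difference of −0.221. It was −0.009 to 0.035 in other mice and 0.013 in lesion 2 of the same mouse. All 10 windows were below 0 and 4 were past the threshold, down to −0.374 in chr16:74000001-76000000, where Robo2, an axon guidance receptor, averaged −0.43 over 4 probes. In chr16:76000001-78000000, the microRNA host gene Mir99ahg averaged −0.32 over 19 probes.

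**Figure D3:**
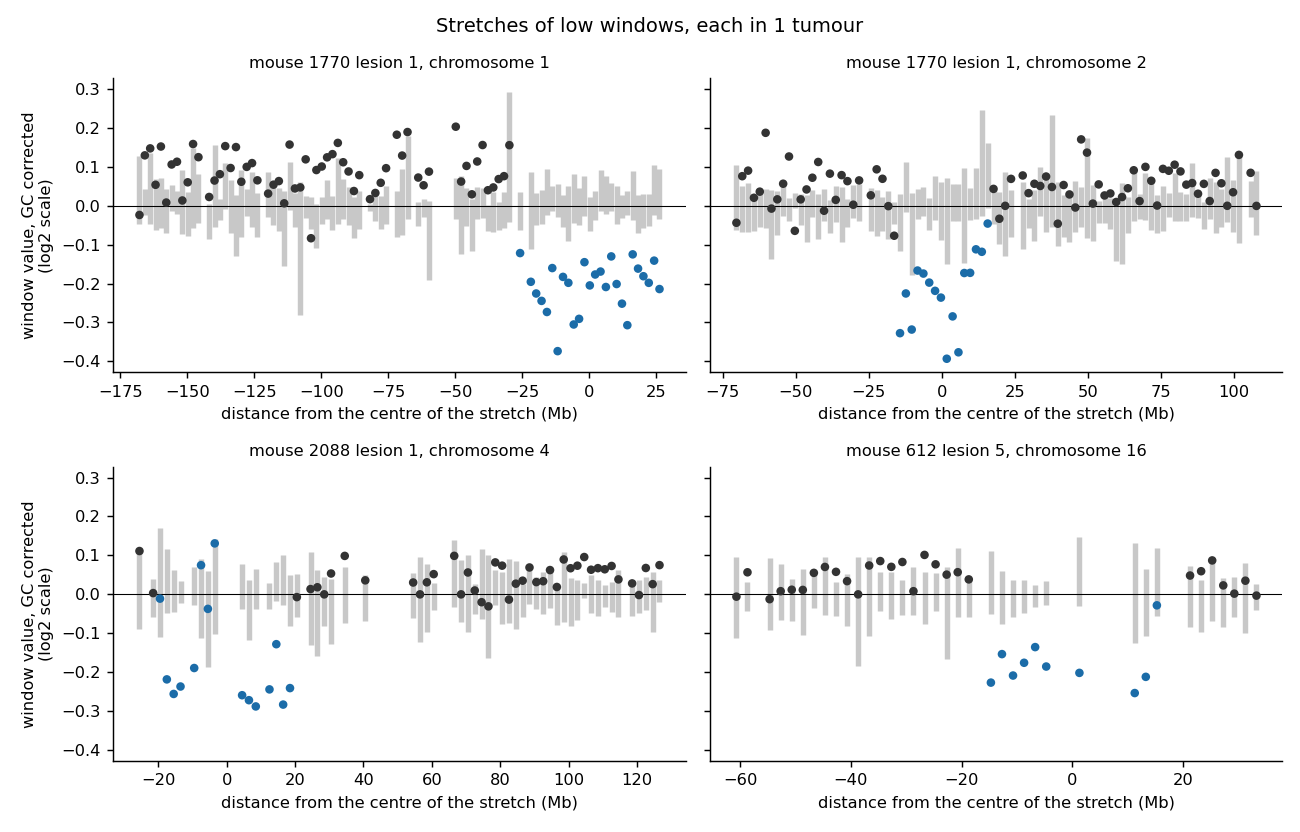
Window values corrected for regional GC content (vertical axis, log2 scale) along the chromosome against distance from the centre of the stretch (Mb) for the 4 long stretches. Points are windows of the named tumour, blue inside and dark outside the stretch, and grey bars span the tumours of the other mice on the same design. The blue points lie below the bars for most of each stretch, with all 26, all 16, 13 of 15 and all 10 windows below 0.

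The windows that recurred in several mice, apart from the one on chromosome 6, had a regional GC content of either 51.9% or at most 39.0%. The window chr10:80000001-82000000 was higher in 4 tumours, with 0.359 in lesion 2 of mouse 2094, 0.346 in lesion 1 of mouse 608, 0.337 in lesion 1 of mouse 2116 and 0.334 in lesion 2 of mouse 2115. It had the highest GC content of all windows and held 62 genes, among them Dot1l, a histone H3 methyltransferase, and Gna11, a G protein subunit. After correction of each array for the GC content of the probes and of 50 kb around them, the 4 values were −0.042 to −0.012, so that none was raised.

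The window chr8:40000001-42000000, with the macrophage scavenger receptor gene Msr1, the mitochondrial calcium regulator gene Micu3 and Tusc3, was lower in 3 tumours, −0.396 in lesion 1 of mouse 2116, −0.328 in lesion 1 of mouse 608 and −0.320 in lesion 1 of mouse 2064. These became −0.226, −0.154 and −0.136 after the correction, and the value of mouse 2116 was −0.187 once its farthest probe was left out. The window chr15:22000001-24000000, named by the cadherin gene Cdh18 alone, was lower in 3 tumours as well, −0.332 in lesion 1 of mouse 2064, −0.325 in lesion 2 of mouse 2094 and −0.308 in lesion 1 of mouse 608. Its regional GC content was 36.8%, and the values after correction were −0.095, −0.050 and −0.072. Lower values in 2 tumours each were found in chr10:112000001-114000000, named by the peptidase gene Trhde (−0.333 in lesion 1 of mouse 608 and −0.301 in lesion 1 of mouse 1770), and in chr15:46000001-48000000 with Csmd3, a complement-control domain gene (−0.316 in lesion 1 of mouse 2064 and −0.301 in lesion 2 of mouse 2094).

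Of the higher values seen in a single tumour, the 3 largest were all in lesion 1 of mouse 608. The window chr4:140000001-142000000 had 0.389, and Sdhb, a subunit of succinate dehydrogenase, averaged 0.62 over 3 probes. The window chr7:20000001-22000000 had 0.351, with the NF-kappaB gene Relb, and chr12:112000001-114000000 had 0.336, with the signal adaptor gene Traf3. After correction these were 0.105, 0.134 and 0.035. The lowest value of this tumour was −0.408 in chr16:80000001-82000000, named by the adhesion gene Ncam2 alone, and −0.232 after correction. In chr12:112000001-114000000 the gene farthest from 0 was the kinase gene Mark3, whose 3 probes averaged −0.93, opposite to the window. The lower windows of this tumour further included chr9:80000001-82000000 with −0.389 (other mice −0.063 to 0.051, −0.246 after correction), where Myo6, an unconventional myosin, averaged −0.94 over 4 probes, and chr5:82000001-84000000 with −0.387 (−0.138 after correction) and the adhesion receptor gene Adgrl3. Chr7:68000001-70000000, with the imprinted genes Ndn and Magel2, had −0.344 (−0.107 after correction), and chr13:82000001-84000000, with the transcription factor gene Mef2c, −0.322 (−0.230 after correction). Its other higher windows, on chromosomes 5, 12, 15 and 19, had 0.301 to 0.327.

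Lesion 1 of mouse 2064 (CD-HFD) had 7 lower windows and no higher one. Besides those on chromosomes 8 and 15, these were chr4:22000001-24000000 with −0.338, chr1:144000001-146000000 with −0.310 (parafibromin gene Cdc73), chr2:66000001-68000000 with −0.304 (a cluster of sodium channel genes with Scn1a) and chr5:80000001-82000000 with −0.301, where Adgrl3 averaged −0.35 over 18 probes. All were closer to 0 after correction, from −0.186 to −0.142 for these 4, and lesion 2 of the mouse had −0.107 to 0.036 there. Lesion 2 of mouse 2094 (anti-PD1) had, besides its shared windows, −0.307 in chr7:92000001-94000000, which holds vomeronasal and olfactory receptor genes, and −0.050 after correction, while lesions 1 and 3 had 0.074 and 0.054. In lesion 1 of mouse 1770, chr1:74000001-76000000 with the bile acid enzyme gene Cyp27a1 was higher with 0.304, and 0.132 after correction. The chromosome mean subtracted there includes the low distal stretch of this tumour, and the probes outside that stretch averaged 0.079 after correction. Neighbouring windows had 0.124, 0.161 and 0.111, so that this window did not stand out from its surroundings. Outside these tumours, the largest higher value limited to 1 tumour was 0.332 in chr11:12000001-14000000 of mouse 1109, a window of 2 named genes with the actin nucleator gene Cobl, and 0.201 after correction.

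Base composition was shared by the focal windows beyond what the rule used. Leaving out the chromosome 6 window, the regional GC content had a median of 49.6% in the 10 higher and 38.2% in the 36 lower windows, against 42.4% over all windows. Of the 289 windows with the lowest GC content, 31 were focal (29 lower, 1 higher and the chromosome 6 window), as were 3 of the next 288, 4 of the 288 after these and 9 of the 289 with the highest, which were all higher. Higher windows were also rich in genes, with a median of 43 named genes against 7 in the lower and 13 in all windows. With the correction for regional GC content, 9 of 1154 windows (0.780%) reached the threshold, 8 of which were focal windows. Of the 18 values inside the 5 stretches 7 stayed past the threshold (median size from 0.347 to 0.278), and of the 38 elsewhere 0 did (0.332 to 0.126), 21 of these being in lesion 1 of mouse 608. The ends of the stretches had been set on ratios with this same correction, which favours such a contrast, so it is a description. The part of fixation, DNA quality or base composition in these 38 values was not tested.

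**Figure D4:**
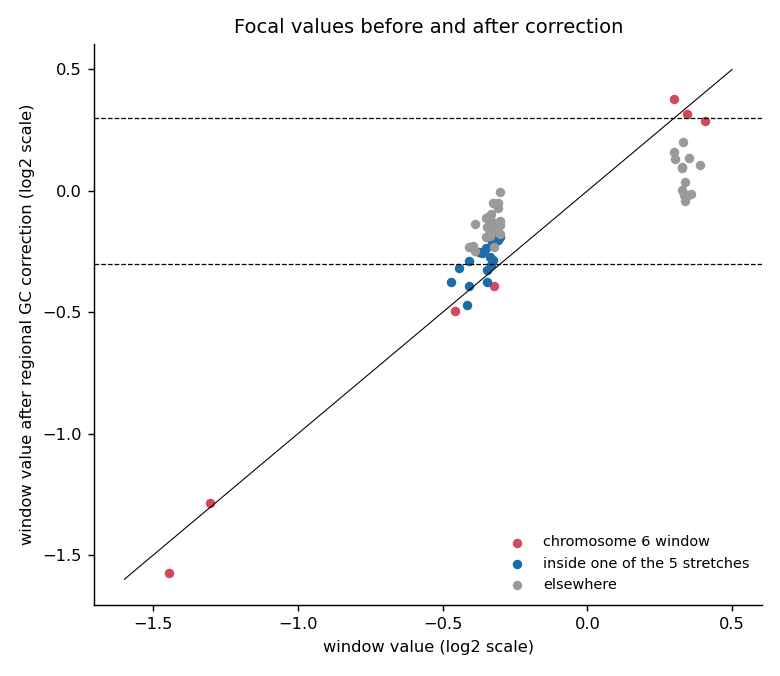
Each of the 64 values past 0.3 before (horizontal axis) and after (vertical axis) correction for regional GC content, both on the log2 scale. Red points are the chromosome 6 window, blue points lie inside the 5 stretches and grey points elsewhere, the diagonal marks equal values and dashed lines mark 0.3 and −0.3. Red points stay near the diagonal and all 38 grey points end between the dashed lines. The ends of the stretches had been set on corrected ratios.

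The probes of each window were also divided by odd and even order along the chromosome. All 64 values had the same direction in the odd and in the even probes, which the selection on their mean favours, and 23 were past the threshold in both. When windows were selected on the odd probes alone, 109 values were past 0.3 (median size 0.350), and on the even probes these had the same direction in 97, were past the threshold in 23 and had a median of 0.168. Selected on the even probes, 124 values (0.338) had the same direction on the odd probes in 114, were past the threshold in 23 and had a median of 0.188. The median size was thus smaller on the probes that had not served for selection, although both sets were measured on the same array.

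Of the windows past the threshold, lesions of the same mouse shared the one on chromosome 6 and no other. For the chromosome 6 window, the other lesion had the same direction in 8 of 8 pairs and was past the threshold in 6. For the other windows, 65 such pairs in 40 windows gave the same direction in 6 and 0 past the threshold, with a median of −0.039 when signed by the direction of the selected lesion. Lesions of a mouse on the same design also share the median that is subtracted from them.

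The focal windows were compared with gene lists. Of 34 liver cancer genes with a window, among them Myc, Met, Yap1, Cdkn2a, Ctnnb1 and Trp53, Nfe2l2 was the only one in a focal window, and the windows of the list made up 2.13% of focal and 2.77% of all windows. The window of Myc was measured in only 8 tumours, those of slide 1, and the others named here in all 21. The window of Vegfa, the vascular growth factor gene, came closest, with 0.297 in lesion 1 of mouse 608 and 0.100 after correction. Zinc finger genes were named in 17.0% of focal and 13.5% of all windows, detoxification enzyme genes in 6.38% and 4.77% and olfactory and vomeronasal receptor genes in 4.26% and 6.85%. None of the focal windows held an antigen receptor gene, an MHC or NK receptor gene, a keratin or defensin gene or a PD1 pathway gene, which were in 0.260%, 0.520%, 1.13% and 0.433% of all windows.

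Whether treatment with anti-PD1 went along with focal changes was examined per mouse, as the mean over its tumours. A tumour had 1150 windows on slide 1 and 967 on slides 2 and 3, and the counts were not scaled for this. Anti-PD1 mice had 2.29 ± 2.55 focal windows per tumour (SD, n = 7, from 0 to 7.67) and CD-HFD mice 2.43 ± 2.59 (n = 7, from 0 to 6.5), a difference of −0.143 that was far smaller than the spread in either group (exact permutation test, two-sided, p = 0.943). Higher windows averaged 0.714 ± 0.970 and 0.5 ± 0.645 (exact permutation p = 0.714), and lower windows 1.57 ± 1.81 and 1.93 ± 2.46 (exact permutation p = 0.843), each 0.943 after Benjamini-Hochberg adjustment over the 3 counts. The smallest p this design allows is 0.000583. Within slides, the difference was 1.83 on slide 1 (exact permutation p = 0.7, n = 3 and 3 mice), −2.5 on slide 2 (exact permutation p = 0.2, n = 3 and 3) and 2.75 on slide 3 (4 mice against 1, no test), so that its direction was not the same on all slides.

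The window values themselves were compared between the groups with limma, with the mouse as a random block, over the 963 windows measured on both designs. At an adjusted p under 0.05 it called 0 windows (0%), and 75 (7.79%) had an unadjusted p under 0.05. Among the 39 focal windows tested, 0 were called and 3 had an unadjusted p under 0.05. With array weights it was 24 of the 39 and 294 of all 963, again with 0 called. With the mean of each mouse it was 2 of the 39 and 40 of all 963, and with the slide in the model 2 and 54, with 0 called in both. The windows had been selected on these values, so nothing is read from these shares, and the 3 are given as values without a test. In the chromosome 6 window, whose ratios rest on a reference near background, all 6 tumours of mice 604, 608 and 612 were below 0, the other 6 anti-PD1 tumours ranged from −0.135 to 0.20 and the CD-HFD tumours from −0.027 to 0.406, so that the groups overlapped. The other 2 were chr2:76000001-78000000, which holds Ttn, the gene of the muscle protein titin, with a difference of 0.082 between anti-PD1 and CD-HFD, and chr4:34000001-36000000 with 0.073, each of which had its lowest value in a CD-HFD tumour with a stretch there.

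Array quality was set beside the number of focal windows over the 14 mice. The probe noise, which is the scatter of the log2 ratio between neighbouring probes (Pearson r = 0.212, permutation p = 0.473, Spearman rho = 0.310, p = 0.277), the slope of the log2 ratio on the GC content of the probe (r = 0.384, permutation p = 0.175, rho = 0.324, p = 0.258) and the tumour signal (r = −0.276, permutation p = 0.346, rho = −0.183, p = 0.528) gave adjusted p of 0.473 for each r and 0.415 to 0.528 for rho. With the 2 mice farthest from the median left out, r was 0.461, 0.228 and −0.377. The size of the slope of the window values on regional GC content, added after the values had been seen, gave r = 0.529 and rho = 0.578, with r = 0.363 without mice 1770 and 2085. Slope and number of focal windows are both taken from the same window values, so this is a description without a test. None of the 3 tested relations passed the adjusted threshold in 14 mice.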

How the data were processed

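Genomic DNA of 21 tumours was measured by 2-colour aCGH. The authors deposited intensity values per spot from Agilent Feature Extraction 11.0.1.1 (positions in mm9), which include processed signals after background subtraction, detrending and linear dye normalization. They also deposited loess-normalized log2 ratios of the probes shared by both designs, used here as an alternative. No counts exist, and the number of arrays limits the precision. Here, log2 of processed tumour (Cy3) over reference (Cy5) signal was formed per spot without control spots and spots with outlier flags (88 to 228 spots per array), spots of a probe were averaged, and windows were formed as described above. The windows and the gene lists were chosen with earlier results of these data known.

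Named windows were the 8 highest and 8 lowest values, 1 per block of adjacent windows, those past the threshold in 3 or more mice, those with a gene of the liver cancer, PD1 or 1 further list and those past it in every lesion of a mouse. Genes named for a window had most probes or an average. Outside chromosome 3, averages were given for the gene with the largest absolute mean in that tumour, among genes with 3 or more probes. Such a gene is the most extreme of its window. Other windows and genes, the stretches and their ends were chosen after their values were seen. One item of the chromosome 6 window is not reported here. Probes were matched to GRCm38 by their whole sequence for regional GC content (99.7% with a single match) and for exon or intron. No coordinates were converted. Gene symbols of the array files were updated where RefSeq names allowed (93.5% matched).

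Counts per mouse were compared by exact permutation of 14 mice and window values by limma 3.58.1 in R 4.3.3 (duplicateCorrelation with the mouse as block, correlation −0.281). The fit was also run on simulated data. There, lesions of a mouse were positively correlated, unlike here, so nothing is read from that run. Correlations used 100000 permutations. Python 3.11.15, numpy 2.4.6, pandas 2.3.3 and scipy 1.17.1 were used. Where nothing says that samples are separate beyond the mouse number, p-values measure the spread between these mice. Alternatives covered loess ratios, normexp correction with an offset of 50, dim probes, GC content, medians, window size, probe minimum, threshold, centring, slide, array weights and each mouse left out.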

Additional observations from a re-analysis of the deposited data

Results flagged for a closer look

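Of 12 sets of 7 mice examined for a single value far from the rest, 3 had one, where chance flags about 1 in 20 groups. Mouse 608 had 7.67 focal windows per tumour, with 3 in the nearest anti-PD1 mouse, and 2.67 higher focal windows per tumour, with 1 in the nearest, and 22 of its values were in lesion 1, whose tumour signal was the lowest of all arrays. After correction for regional GC content mouse 608 had 0.667 focal windows per tumour. In the CD-HFD group, the slope of the log2 ratio on the GC content of the probe was −0.582 per 10 percentage points in mouse 822, with −0.355 in the nearest mouse.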

How the results depend on the processing

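The number of focal windows followed the processing. Instead of 47, it was 3 with normexp, 153 with loess ratios and at least 5 probes together, 26 with correction for the GC content of probe and window, 9 for regional GC content, 98 with medians, 209 with windows of 1 Mb and at least 10 probes together, 77 and 14 with at least 10 and 40 probes, 200 with probes of both designs and at least 5 probes together, 91 with 1 centre for all tumours, and 277 and 7 with thresholds of 0.2 and 0.4.

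The difference in focal windows per mouse (−0.143) reversed with normexp (0.119), 1 centre (0.762), the threshold of 0.2 (1.93), every tumour taken as independent (0.0833), within slide 1 (1.83) and within slide 3 (2.75), and ranged from −1.04 to 0.536 with a mouse left out. Without lesion 1 of mouse 608 it was −1.45, the anti-PD1 mean being 1.33. Higher windows (0.214) reversed with correction for probe GC (−0.238), regional GC (−0.214), chromosome medians (−0.0238), without lesion 1 of mouse 608 (−0.0238) and at 0.4 (−0.0714), and ranged from −0.111 to 0.381. Lower windows (−0.357) reversed within slides 1 (1.33) and 3 (2.25) and ranged from −0.929 to 0.155. No exact p was under 0.05. Limma called 0 windows in all 25 alternatives, with unadjusted counts from 9 with 1 centre for all tumours to 294 under array weights.

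Of 180 alternative values of the named windows, 121 differed by less than the spread over other mice, 47 moved and 12 reversed. Chromosome 6 reversed with only probes well above background in mouse 604 lesion 1 (0.00727), mouse 612 lesion 2 (0.0183) and mouse 1770 lesion 1 (−0.0893), and with medians in mouse 612 lesion 2 (0.000816). On chromosome 10, the values of lesions 608 L1, 2116 L1, 2115 L2 and 2094 L2 were −0.0194, −0.0924, −0.0235 and −0.0971 with correction for probe and window GC and −0.0179, −0.0421, −0.0163 and −0.0120 for regional GC. Chromosome 6 values rest on signals near background. The causes were not tested. No paired analysis was possible because each mouse was in 1 group only.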

Other observations

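The same tumours were read at Ide and Nnt, genes known to differ among C57BL/6 mice. At Ide, the gene of the insulin-degrading enzyme (chr19:37358560-37390045, mm9, 2 probes of the slide 1 design), ratios relative to the chromosome were averaged over the probes. The 4 tumours of mice 604, 608 and 612 had −0.058 to 0.093 and the other 4 tumours 0.582 to 0.678, without overlap of these means. Single probes did overlap between the sets, with −0.349 and 0.536 in lesion 1 of mouse 608 and 0.263 and 0.901 in lesion 2 of mouse 2067. How many other genes separate these tumours in the same way was not counted. On slide 1 these 2 sets are also the 2 treatment groups, so that mouse origin and treatment cannot be told apart there, and Ide was not read on slides 2 and 3. At Nnt, the gene of a mitochondrial transhydrogenase, the sets overlapped, with −0.319 to 0.016 against −0.223 to −0.068 on slide 1 (3 probes) and −0.311 to −0.125 against −0.303 to −0.053 on slides 2 and 3 (6 probes).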
